A study of Mus musculus with 4 samples.

Results

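The genes described here encode 10 subunits of intraflagellar transport complex B (IFT-B): Ift20, Ift27, Ift46, Ift52, Ift57, Ift74, Ift80, Ift81, Ift88 and Ift172. They were chosen by gene symbol, and all 10 were found among the 22311 gene symbols of the files. RNA was sequenced from whole testes of 24-day-old male mice, with 2 samples of Rfx2-/- mutants and 2 of controls. The mutant allele is a conventional knockout, present in every cell of the body, in which a neomycin cassette replaced exons of Rfx2, and the line was founded from 1 embryonic stem cell clone. The labels give the controls as wild type and the strain as DBA, whereas the methods of the study describe heterozygous controls on a mixed background, so the control genotype is uncertain. Neither genotype received a treatment. The labels call the samples replicates without naming animals, while the study describes 2 independent biological samples per genotype. The tests measure the spread between these samples.

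Intraflagellar transport moves building blocks along the microtubules of a growing cilium or flagellum. Trains of IFT-B and IFT-A are carried to the tip by kinesin-2 and back by dynein-2, and IFT-B is the part needed for outward transport and for assembly. In the testis the axoneme of the sperm tail is built in spermatids with the help of this machinery. Rfx2 encodes a transcription factor that binds the X-box, a motif found near many genes of cilia, and is strongly expressed in male germ cells.

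Values are FPKM (fragments per kilobase of transcript, scaled to the mapped fragments of a library) as the authors deposited them. Fold changes are differences in log2(FPKM + 1), mutant minus control, from limma fitted to 12985 genes, those reaching 1 FPKM in 2 or more samples, and adjusted p-values follow Benjamini and Hochberg over all of them. A change was called at an adjusted p under 0.05. Rfx2 itself measured 36.7 and 39.8 FPKM in mutant testes and 123 and 89.4 in control testes, or 36.0% of the control mean (log2 fold change -1.43, limma adjusted p = 0.00617, and 0.0628 without control 1). The value covers the whole gene, including exons that the allele retains. Markers of spermatocytes, round spermatids and Sertoli cells were present in all 4 samples. Mutant 1 stood apart in the 7 markers of elongating spermatids, whose summed level was 1090 FPKM there, 5962 in mutant 2, and 7542 and 5085 in the controls. Results for IFT-B are therefore also given without it.

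IFT-B transcripts did not move together in the mutant testes. Ift74 and Ift81, whose proteins pair in the core of the complex and bind tubulin, rose to 1.92 and 1.79 times the control mean. Ift27, a small GTPase of the same core, fell to 54.0% of it. The other 7 members passed no threshold after adjustment, and Ift57 was the lowest of those relative to control, at 64.0%. The median log2 fold change of the 10 members was -0.04, beside 0.03 over all genes tested.

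All 10 members passed the filter on low values. Of these, 1 was called lower and 2 were called higher. Over all genes tested, 2.52% were called lower (327 genes) and 0.308% higher (40 genes). At an unadjusted p under 0.05, 2 members were lower (Ift27 and Ift57) and 3 were higher (Ift46, Ift74 and Ift81), against 6.68% and 2.01% of all genes tested. Both mutant samples lay below both controls in 4 members (Ift27, Ift52, Ift57 and Ift172) and above both in 3 (Ift46, Ift74 and Ift81). Among all genes tested these shares were 15.2% and 16.3%. The groups overlapped in Ift20, Ift80 and Ift88.

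**Figure D1:**
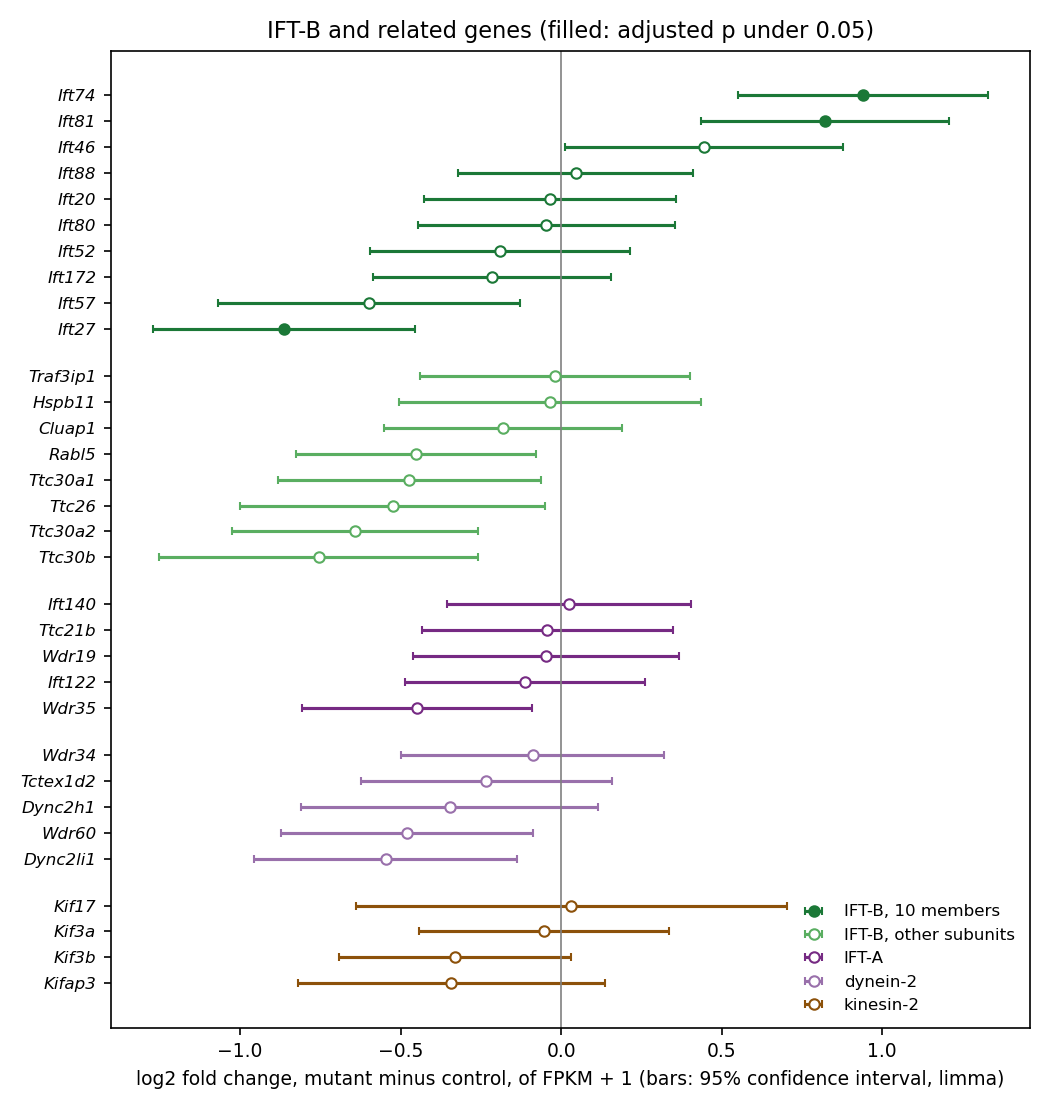
Difference between mutant and control testes in log2(FPKM + 1), with the 95% confidence interval from limma. Shown are the IFT-B members, further IFT-B subunits, and tested genes of IFT-A, dynein-2 and kinesin-2. Filled points have an adjusted p under 0.05. Among the members, the filled points are Ift74 and Ift81 to the right of 0 and Ift27 to the left. The intervals of Ift46 and Ift57 also exclude 0, but their points are open.

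Promoters were searched for the X-box, the motif that RFX proteins bind, on both strands with a gap of 0 to 3 bases between its arms. The window ran from 250 bases before to 50 after the RefSeq start in GRCm38.p6, and 8 of the 10 members were matched by symbol. Ift80 and Ift81 had no entry. An X-box was found in 1 of the 8, Ift57, at -87 to -74 and at -60 to -48 from the start, and in 474 of 27025 genes of the table (1.75%) and 223 of 9139 tested genes (2.44%). With 1 mismatch allowed, Ift57, Ift74 and Ift88 had a match, as did 15.2% of the tested genes. A match describes letters in this window and is not evidence of binding.

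The promoters of Ift57, Ift74 and Ift27 are shown, as the member with an X-box, the member with the largest rise and the one called lower. Capitals mark the X-boxes of Ift57 and the match with 1 mismatch in Ift74, and Ift27 had neither. Each runs 5′ to 3′ in the direction of transcription. Ift57 is chr16:49699044-49699343 on the plus strand, Ift74 is chr4:94614241-94614540 on the plus strand, and Ift27 is chr15:78174032-78174331 on the minus strand.
Ift57: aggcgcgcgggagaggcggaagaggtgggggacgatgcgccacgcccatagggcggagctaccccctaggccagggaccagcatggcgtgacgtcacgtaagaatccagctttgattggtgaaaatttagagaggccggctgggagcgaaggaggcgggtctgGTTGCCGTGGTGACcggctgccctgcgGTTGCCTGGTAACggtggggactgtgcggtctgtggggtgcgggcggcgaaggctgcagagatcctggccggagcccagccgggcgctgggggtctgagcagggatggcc
Ift74: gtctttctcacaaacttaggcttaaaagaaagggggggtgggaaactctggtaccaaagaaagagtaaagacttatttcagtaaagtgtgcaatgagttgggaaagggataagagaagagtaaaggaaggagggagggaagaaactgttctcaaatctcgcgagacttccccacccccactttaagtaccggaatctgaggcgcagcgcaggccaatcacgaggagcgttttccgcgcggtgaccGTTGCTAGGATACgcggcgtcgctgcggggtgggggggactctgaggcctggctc
Ift27: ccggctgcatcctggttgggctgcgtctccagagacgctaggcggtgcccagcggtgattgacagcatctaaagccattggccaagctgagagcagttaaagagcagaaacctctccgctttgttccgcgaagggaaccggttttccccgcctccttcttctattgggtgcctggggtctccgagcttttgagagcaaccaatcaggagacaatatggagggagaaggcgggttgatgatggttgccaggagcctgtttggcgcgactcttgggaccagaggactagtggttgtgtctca
The Ift74 match spans -5 to 8 around the start. The gene with an X-box in this window, Ift57, was lower in both mutants without passing the threshold, and Ift27, which fell past it, had no match.

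In control testes the members spanned 26.2 FPKM (Ift52) to 97.3 (Ift74), against a median of 9.45 FPKM over the genes tested. From high to low the order was Ift74, Ift172, Ift20, Ift46, Ift81, Ift27, Ift80, Ift88, Ift57 and Ift52. The 2 control samples of neighbours overlapped for Ift46 and Ift81, and for every neighbouring pair from Ift27 down to Ift52, so that the lower end of the order is not resolved. In the mutants Ift74 stayed first, Ift81 moved to position 2, and Ift27 moved from position 6 to position 10. Position 10 is not resolved either, because Ift27 (20.6 and 16.6 FPKM) overlapped Ift57 (19.5 and 18.5 FPKM) in the mutants.

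**Figure D2:**
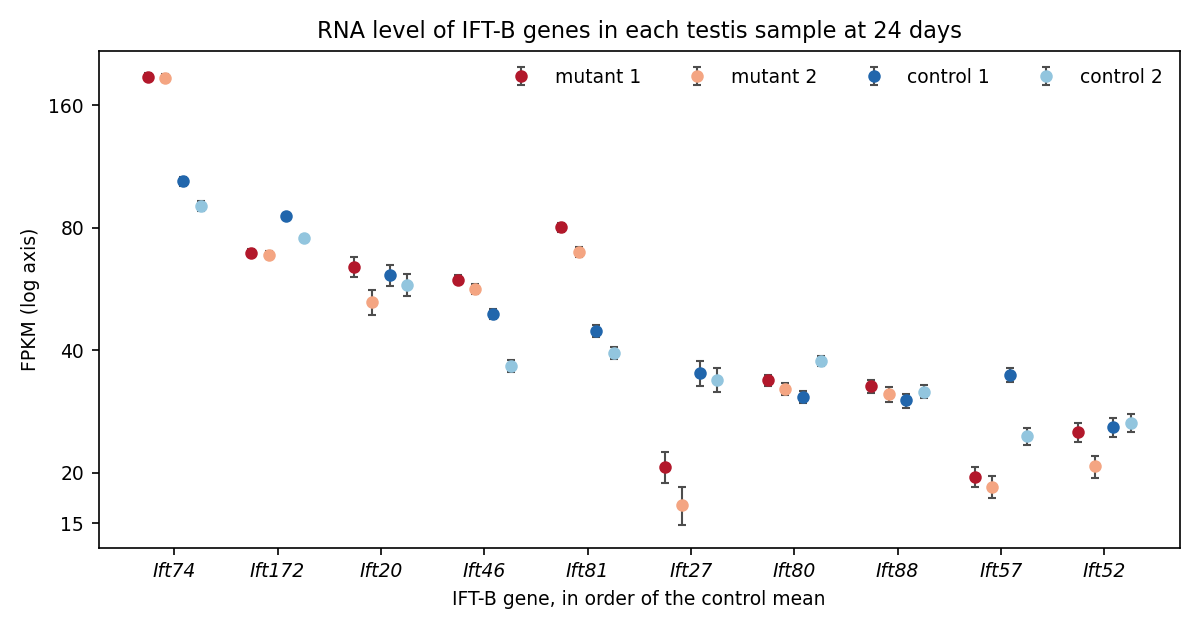
Level of each IFT-B member in FPKM (log axis) in mutant 1, mutant 2, control 1 and control 2. Vertical bars are the confidence intervals given by the authors' Cufflinks run, which cover 1 sample each. Ift74 and Ift81 are higher in both mutants and Ift27 is lower in both.

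Ift74 lies on chromosome 4 (chr4:94281182-94359920, plus strand, NCBIM37/mm9, 20 annotated exons). It was at 188 FPKM in mutant 1 and 187 in mutant 2, and at 104 and 90.6 in the controls. Both mutants were above both controls, and the mutants differed from each other by less than the controls did. The log2 fold change was 0.94 ± 0.17 (SE, n = 2 per genotype), with a 95% confidence interval of 0.55 to 1.33 and a limma adjusted p of 0.0253. The neighbouring gene Plaa, which was listed at 9.07 and 6.70 FPKM in the mutants and 6.37 and 9.08 in the controls, overlapped between genotypes. So did 4930579C15Rik, 214038 bases away on the other side, at 22.5 and 48.3 FPKM in the mutants and 34.45 and 34.1 in the controls. Lrrc19 and Mir872 lie inside Ift74, and both were listed at 0 in every sample. Gm17636 overlaps an exon of Ift74, as Gm15518 does for Ift57 and 2310043D23Rik for Ift88. None of these overlapping genes is listed under its symbol in the deposited values, so reads from them may be counted for the member.

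Ift81 lies on chromosome 5 (chr5:123000213-123064527, minus strand, NCBIM37/mm9, 19 annotated exons). Its level was 80.2 and 69.7 FPKM in the mutants and 44.5 and 39.4 in the controls. The groups did not overlap. The log2 fold change was 0.82 ± 0.17 (SE, n = 2 per genotype), with an interval of 0.44 to 1.21 and a limma adjusted p of 0.0453. The nearest tested gene, P2rx7, was near 1 FPKM in all 4 samples, and Atp2a2 on the other side was at 59.9 and 49.6 FPKM in the mutants and 53.9 and 60.7 in the controls.

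The Ift74 level was 2.34 and 2.68 times that of Ift81 in the mutants and 2.34 and 2.30 times in the controls. Both mutant ratios thus lay above both control ratios, by very little in mutant 1. The ratio stayed within 2.30 to 2.68 while both genes were higher in the mutants. Together they made up 45.2% and 46.3% of the summed FPKM of the 10 members in the mutants, and 29.7% and 28.6% in the controls. Both genes had been taken up for PCR by the study after they differed between these same samples, so the values describe that choice and are no independent test of it. By real-time PCR the study reported both as upregulated in the mutants. Whether the testes used for PCR were those sequenced is not stated.

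Ift27 lies on chromosome 15 (chr15:77989895-78004538, minus strand, NCBIM37/mm9, 7 annotated exons). Its protein forms a dimer with the product of Hspb11 (also called Ift25), and this dimer takes part in the exit of BBSome cargo from cilia. Ift27 was at 20.6 and 16.6 FPKM in the mutants and 35.2 and 33.9 in the controls. Both mutants were below both controls. The log2 fold change was -0.86 ± 0.18 (SE, n = 2 per genotype), with an interval of -1.27 to -0.45 and a limma adjusted p of 0.0478, close to the threshold. Eif3d, a tested gene 188641 bases away on one side, was at 90.9 and 92.3 FPKM in the mutants and 93.8 and 89.0 in the controls. On the other side, 204292 bases away, 1700061J05Rik was at 83.5 and 225 FPKM in the mutants and 268 and 209 in the controls, which overlap.

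The partner Hspb11, picked out after its values were seen, was at 27.2 and 19.5 FPKM in the mutants and 25.1 and 22.2 in the controls, which overlap. The ratio of Ift27 to Hspb11 was therefore 0.760 and 0.853 in the mutants and 1.40 and 1.53 in the controls. The share of Ift27 in the summed FPKM of the 10 members was 3.48% and 3.01% in the mutants and 7.03% and 7.46% in the controls. Against Ift74, Ift27 stood at 0.110 and 0.0892 in the mutants and 0.338 and 0.374 in the controls. These ratios are given as a description and were not tested.

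**Figure D3:**
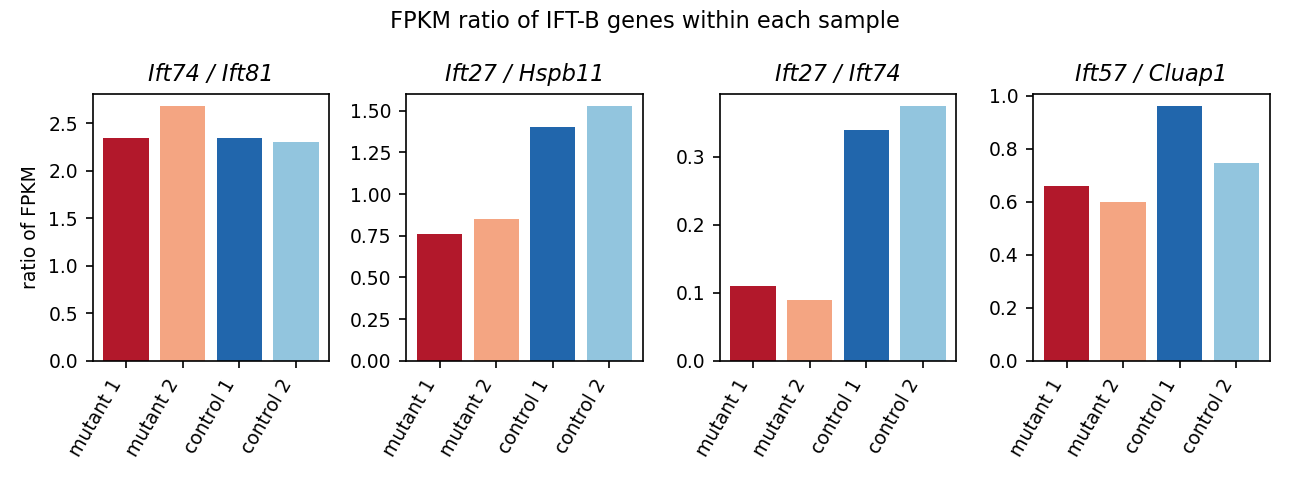
Ratios of FPKM between IFT-B genes within each of the 4 samples, 1 panel per ratio, with bars from 0. The ratio of Ift74 to Ift81 is 2.30 to 2.68 in all samples and highest in mutant 2. That of Ift27 to Hspb11 is lower in both mutants.

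The calls for these 3 members depended on single samples and on the processing. Over the 9 alternatives that used all 4 samples, Ift74 was called in 6 and Ift81 and Ift27 in 2 each, always in the same direction. For Ift81 and Ift27 these 2 were the replicate block and the maximum of symbol entries. No member had more than 1 entry, so taking the maximum left their values unchanged and is no check on them. Without control 1 the limma adjusted p was 0.0672 for Ift74, 0.189 for Ift81 and 0.393 for Ift27, and without control 2 it was 0.124, 0.307 and 0.289. Without mutant 1, the sample low in elongating spermatid markers, the log2 fold changes were 0.94 for Ift74, 0.72 for Ift81 and -1.01 for Ift27. Each fit without a sample leaves 1 sample in a group and takes the spread from the other group alone. Calls kept or lost in such a fit are therefore no firm check. In whole testis, fewer cells of a type and less RNA per cell cannot be told apart.

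Ift57 and Ift46 had an unadjusted p under 0.05 and missed the threshold after adjustment. Ift57, a subunit of the peripheral module, was at 19.5 and 18.5 FPKM in the mutants and 34.8 and 24.6 in the controls. Both mutants were below both controls, but the controls lay far apart. The log2 fold change was -0.60 (95% interval -1.07 to -0.13, limma adjusted p = 0.317). Ift46, a core subunit that takes part in the import of outer dynein arms, was at 59.6 and 56.5 FPKM in the mutants and 49.1 and 36.5 in the controls. Its log2 fold change was 0.45 (0.013 to 0.88, limma adjusted p = 0.539).

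Ift52 and Ift172 were below control in both mutants by a smaller amount. Ift52, which holds core subunits together, was at 25.2 and 20.7 FPKM in the mutants and 25.8 and 26.6 in the controls (log2 fold change -0.19, limma adjusted p = 1.0). Ift172, the largest subunit of the peripheral module, was at 69.5 and 68.6 FPKM in the mutants and 85.6 and 75.5 in the controls (log2 fold change -0.22, limma adjusted p = 1.0). Neither difference was larger than the spread that the test allows.

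The samples of the 2 genotypes overlapped in the remaining members. Ift88, whose loss in mice disrupts cilia, was at 32.6 and 31.2 FPKM in the mutants and 30.1 and 31.7 in the controls, and its log2 fold change had an interval of -0.32 to 0.41. Ift20, which also works at the Golgi, was at 64.1 and 52.6 FPKM in the mutants and 61.1 and 57.9 in the controls, with an interval of -0.43 to 0.36. Ift80 was at 33.8 and 32.1 FPKM in the mutants and 30.7 and 37.7 in the controls, with an interval of -0.44 to 0.35. A change of the size seen in Ift74, Ift81 or Ift27 lies outside each of these intervals.

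The called members all belong to the core module, which among the 10 members holds Ift27, Ift46, Ift52, Ift74, Ift81 and Ift88. None was called in the peripheral module of Ift20, Ift57, Ift80 and Ift172. Further IFT-B subunits, described below, were not assigned to a module here, and none of those examined was called. The difference between the modules was not tested. The summed FPKM of the 10 members was 593 and 553 in the mutants and 501 and 454 in the controls. Without Ift74 and Ift81 it was 325 and 297 in the mutants and 352 and 324 in the controls.

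The intervals that Cufflinks gives for each member were narrow, at 1.77% to 10.7% of the value to either side, which corresponds to about 348 to 12833 fragments. They cover counting and assignment within 1 library. The intervals of the 2 controls did not overlap for 6 members (Ift46, Ift57, Ift74, Ift80, Ift81 and Ift172), and those of the 2 mutants for 4 (Ift20, Ift27, Ift52 and Ift81). Samples of 1 genotype thus differed by more than this error.

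Mutant 1 and mutant 2 were set side by side because their germ cell markers differed. The median of the 7 elongating spermatid markers was -2.58 in mutant 1 and 0.05 in mutant 2, relative to the control mean in log2(FPKM + 1). Ift74, Ift81 and Ift46 were above the control mean and Ift27, Ift57 and Ift172 below it in both mutants. The summed level of the 5 round spermatid markers was 873 and 1110 FPKM in the mutants and 1104 and 945 in the controls. The 7 spermatocyte markers summed to 2821 and 2766 FPKM in the mutants and 2939 and 2533 in the controls. Sums over the Sertoli cell markers were 228 and 195 FPKM in the mutants and 162 and 232 in the controls. No marker was at 0 in any sample, and the part of cell composition in the IFT-B results was not tested.

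**Figure D4:**
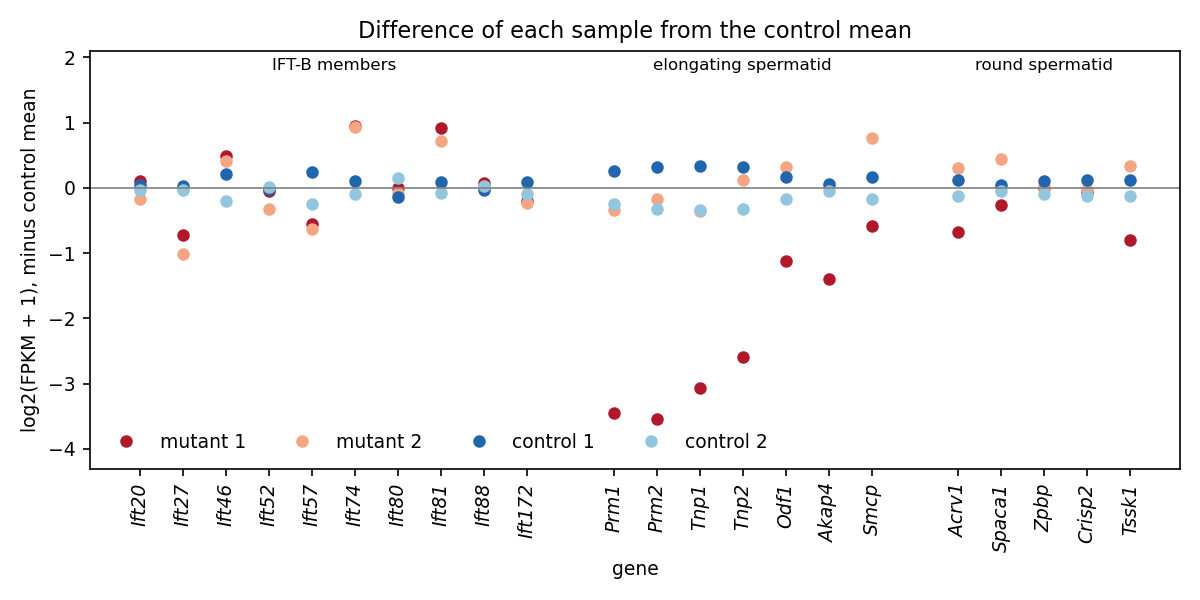
Each sample's difference from the control mean, in log2(FPKM + 1), for the IFT-B members and for markers of round and elongating spermatids. Mutant 1 is far below the other samples in elongating spermatid markers, while both mutants lie on the same side of the control mean for Ift74, Ift81 and Ift27.

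IFT-B has further subunits whose genes carry other names, and none of the 8 examined was called. All 8 had a log2 fold change below 0, with a median of -0.46, beside 0.03 over all genes tested. Those of Hspb11 (-0.03) and Traf3ip1 (-0.02) were close to 0. In 6 of the 8 both mutants were below both controls, as in 15.2% of all genes tested, and the difference was not tested. Rabl5 (also called Ift22), a small GTPase, was at 84.0 and 84.1 FPKM in the mutants and 122 and 109 in the controls (log2 fold change -0.45, limma adjusted p = 0.358). Ttc30a2 was at 49.5 and 45.8 FPKM in the mutants and 81.1 and 69.0 in the controls (-0.64, limma adjusted p = 0.123), a value that is uncertain because the Ttc30 genes are near-identical copies that can share reads. Cluap1 (also called Ift38), a partner of Ift57, was at 29.7 and 30.9 FPKM in the mutants and 36.2 and 32.8 in the controls. Over all 18 subunits, 14 had a log2 fold change below 0 and 4 above. The Ttc30 genes count separately in these numbers although they can share reads. No member of this second group rose past the threshold as Ift74 and Ift81 did.

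The machinery around IFT-B was examined in lists of its partners. None of the 5 IFT-A genes found, the 5 dynein-2 genes, the 4 kinesin-2 genes tested or the 10 BBSome genes was called in either direction, and the median log2 fold changes were -0.05, -0.35, -0.19 and -0.33. The BBSome connects to IFT through Ift27, and its list here also holds the associated genes Arl6 and Lztfl1. Both mutants lay below both controls in 8 of the 10 listed genes. Over all genes tested this share was 15.2%, and the difference from it was not tested. In IFT-A, Ift140 was at 116 and 111 FPKM in the mutants and 118 and 105 in the controls. Its control mean of 111.5 FPKM was above that of each of the 10 members, but below that of the IFT-B subunit Rabl5 (115.5). Of 6 IFT regulators found, Cdk20, a kinase that acts on ciliary transport, was the only one called. It fell from 34.5 and 30.0 FPKM in the controls to 4.31 and 3.85 in the mutants (log2 fold change -2.71 ± 0.19, SE, n = 2 per genotype, limma adjusted p = 0.000198), and was called in all 9 alternatives. When each sample was left out in turn, the log2 fold change of Cdk20 was -2.81 to -2.61.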

How the data were processed

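Members and lists were chosen with earlier results of these data known. RNA from whole testes of 2 mutant and 2 control samples was sequenced by the authors, who aligned reads to mm9 with TopHat2 2.0.6 and deposited FPKM per gene from Cufflinks, with its interval bounds. FPKM are scaled for gene length and depth within a sample, and total read counts were not used here. The authors pooled replicates in Cuffdiff, which FPKM cannot feed. Entries sharing a symbol were summed. Values were tested as log2(FPKM + 1) in R 4.3.3 with limma 3.58.1 (eBayes, trend on the mean level). Tests were two-sided, and p-values were adjusted by Benjamini-Hochberg over the 12985 genes that reached 1 FPKM in 2 or more samples. The script was tested on simulated data. The pseudocount lowers the fold changes of low genes. Genes named are the 10 members, Rfx2, every called gene of the partner lists and up to 3 others per list with the highest mean FPKM, and entries that overlap a member or flank a called one. Alternatives were another pseudocount, filters, scalings, no trend, symbol entries taken by maximum, a replicate block and leaving out each sample. Positions are from GENCODE M1 (NCBIM37/mm9), promoters from RefSeq (GRCm38.p6). Tables were made with python 3.11.15 and pandas 2.3.3.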

Additional observations from a re-analysis of the deposited data

How the results depend on the processing

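Ift74, Ift81 and Ift27 kept their directions under all 9 alternatives with 4 samples, but not their calls. The limma adjusted p ranged from 0.00258 to 0.161 for Ift74, 0.00714 to 0.146 for Ift81 and 0.0109 to 0.123 for Ift27. The number of members called lower fell to 0 with a pseudocount of 0.1, no filter, a filter at 5 FPKM, median-ratio scaling, quantile scaling or no trend. The number called higher was 1 with a pseudocount of 0.1, the filter at 5 FPKM, quantile scaling or no trend, and 0 with no filter or median-ratio scaling. With the replicate block, 1 was called lower and 2 higher. Samples with the same number deviated from their group means with a correlation of -0.154. This value cannot settle whether the labels' numbers pair the samples, because mutant 1 stood apart from mutant 2 in elongating spermatid markers. With the crossed replicate block, chosen after seeing the data, 0 were called lower and 0 higher. Leaving out each sample in turn gave 0 to 1 called lower and 0 to 2 higher. Such fits leave 1 sample in a group, which is assumed to vary like the others.

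Over all genes, 199 were lower with no filter, 202 with the filter at 5 FPKM, 216 with median-ratio scaling, 525 with the replicate block and 167 to 948 when each sample was left out. The counts of higher genes were 17, 17, 16, 70 and 13 to 162. Differences near 0 changed sign for Ift20 (0.008 with quantile scaling, and -0.18 to 0.11 when each sample was left out) and Ift80 (0.0202, and -0.19 to 0.10). The cause of these changes was not tested. The blocked and left-out fits have 1 residual degree of freedom.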
